A study of Mus musculus with 2 samples.

Results

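The lipid and lipoprotein handling genes described here are the 9 rows of the deposited UMI matrices with the symbols Apoe, Apob, Mttp, Vldlr, Scarb1, Abca1, Nr1h3, Lpl and Pon1, of 27998 genes listed in all. Single cells of the retinal pigment epithelium (RPE), labelled as such, were isolated from 2 male C57BL/6J mice, R1 and R2, and there was a single condition with no treatment or genetic change. The age was postnatal day 36 in the paper, while the labels give an age range in weeks. RPE sheets were released from both eyes of a mouse with trypsin for 30 min, pooled, dispersed, stained with calcein for 15 min, and sorted as calcein-positive and DAPI-negative cells, so each mouse is 1 library and 1 replicate. Transcripts carry unique molecular identifiers (UMIs) at their 3′ ends, and levels below are UMIs of a gene per 10000 UMIs of a cell, averaged over the cells of a mouse, unless a summed level is named. A UMI stands for 1 captured molecule whatever the length of its gene, so levels of different genes are set side by side without scaling to length. After quality filters, cells were grouped by the share of their UMIs that came from Ttr, which encodes transthyretin, the retinol and thyroid hormone carrier that mature RPE secretes. High-Ttr cells had at least 5% of their UMIs from Ttr and low-Ttr cells under 3%, and Ttr itself is therefore no result.

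The RPE takes up lipid from the outer segments that photoreceptors shed and from the choroidal blood, and hands lipid and cholesterol on in both directions. It does so with apolipoproteins and with the machinery that assembles lipoprotein particles, with receptors that bind such particles, and with transporters that move cholesterol out of the cell and are switched on by the sterol-sensing liver X receptors (LXR). Lipases split the triglyceride of particles outside the cell, and paraoxonases are lipoprotein-bound enzymes known for protecting lipids from oxidation.

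Of the deposited 2844 cells of R1 and 2994 of R2, with 26034378 and 29732969 UMIs in total, 2671 and 2847 were kept, and 12 cell barcodes occurred in both mice. High-Ttr cells numbered 2612 in R1 and 2828 in R2, with median depths of 8426 and 7687 UMIs, and each of the 8 RPE markers other than Ttr was found in both mice. Low-Ttr cells numbered 59 and 19, with median depths of 3200 and 3836 UMIs, and 0 cells lay between the limits, the highest low share being 2.66% and the lowest high share 5.14% of UMIs. The low-Ttr cells did not carry the RPE label in full, since their summed RPE markers averaged 36.6 and 26.2 per 10000 UMIs against 410 and 470 in the high-Ttr cells, with Best1 at 0. Most of them, 52 in R1 and 16 in R2, held at least 3 of 8 markers of a Pax6- and Dkk3-positive pigment cell, and these are called Pax6/Dkk3-marked. A further 2 and 1 cells carried microglia or macrophage markers, 3 and 2 carried fibroblast markers, and 2 cells of R1 carried neither. The microglia or macrophage list summed to 11.2 and 19.5 per 10000 in low-Ttr cells against 0.136 and 0.0401 in high-Ttr cells, with 9 of its 10 genes found, and the fibroblast list to 24.9 and 35.8 against 0.0195 and 0.220, with all 6 found. In the Pax6/Dkk3-marked cells 0 of the 10 microglia or macrophage markers and 1 of the 6 fibroblast markers had a UMI in either mouse. Markers of Muller glia, some of which RPE also expresses, summed to 19.3 and 27.4 in low-Ttr against 11.7 and 11.2 in high-Ttr cells, and rod and lymphocyte markers were at 0 in low-Ttr cells. The median share of mitochondrial UMIs was 2.57% and 3.36% in low-Ttr cells against 1.30% and 1.26% in high-Ttr cells, and its part in the results was not tested.

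The 250 bases before the annotated start of Apoe and Pon1, the most abundant of these genes and the pair that varied together from cell to cell, are shown with those of Vldlr, the receptor that was lower in low-Ttr cells. They are RefSeq sequence of GRCm38.p6, written 5′ to 3′ on the strand of the gene, and end next to the start site. Capitals mark TAATCC, or GGATTA where it lies on the other strand, the core bound by OTX2 and CRX, homeodomain factors of the RPE and of photoreceptors.
Apoe promoter, chr7:19699189-19699438, minus strand: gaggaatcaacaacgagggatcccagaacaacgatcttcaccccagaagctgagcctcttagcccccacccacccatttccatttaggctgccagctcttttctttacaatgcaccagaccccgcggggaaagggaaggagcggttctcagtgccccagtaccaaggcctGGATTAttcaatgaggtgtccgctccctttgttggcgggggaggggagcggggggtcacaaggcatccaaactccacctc
Pon1 promoter, chr6:5193947-5194196, minus strand: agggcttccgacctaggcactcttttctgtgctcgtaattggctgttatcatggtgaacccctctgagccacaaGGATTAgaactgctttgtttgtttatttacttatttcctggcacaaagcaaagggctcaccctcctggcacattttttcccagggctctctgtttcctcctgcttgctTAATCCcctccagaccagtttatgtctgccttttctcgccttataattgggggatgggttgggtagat
Vldlr promoter, chr19:27216234-27216483, plus strand: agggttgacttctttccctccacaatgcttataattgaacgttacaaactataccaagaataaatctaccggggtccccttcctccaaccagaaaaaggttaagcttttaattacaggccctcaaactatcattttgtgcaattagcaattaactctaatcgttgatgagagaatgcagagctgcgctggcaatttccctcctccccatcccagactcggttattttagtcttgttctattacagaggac
Apoe held the core 1 time, on the other strand at -80 to -75 from its start, and Pon1 held it on the other strand at -176 to -171 and on its own strand at -68 to -63. These letters were not in the Vldlr window, and 6.25% of all 32851 promoter windows of this length held them on either strand. The core is short, and a match describes the sequence only. Promoters were found for 7 of the 9 genes, without Lpl and Scarb1, and not all RefSeq windows lay at the annotated start of the gene. The further windows of Apoe and Vldlr, away from that start, did not hold the core. A window of Nr1h3 away from its annotated start held TAATCC at -55 to -50. The only other match was the E-box CACGTG of Abca1 at -147 to -142, a sequence that 6.02% of promoters held. The E-box CATGTG (12.2% of promoters), the nuclear receptor site AGGTCA (14.0%) and the LXR-type repeat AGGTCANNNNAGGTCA (0.0152%) were not in these windows of the 7 genes.

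Of the 3 genes of particle assembly among the 9, Apoe was abundant and Apob and Mttp were not. Apoe (chr7:19696109-19699188, GRCm38) encodes the apolipoprotein by which cells hand lipid to receptors of the LDL receptor family. Its mean level in high-Ttr cells was 179 per 10000 UMIs in R1 and 164 in R2, or 172 ± 10.8 (SD, n = 2 mice), which ranked it 5th and 6th among the 15558 and 15297 genes with a UMI there. Every high-Ttr cell held Apoe UMIs, in all 2612 cells of R1 and all 2828 of R2. Single high-Ttr cells ranged from 38.7 to 440 per 10000 in R1, with a median of 175, and from 17.7 to 347 in R2, with a median of 163, and the coefficient of variation across cells was 28.9% and 24.1%. The summed level of R2 was 0.904 times that of R1 (95% interval 0.900 to 0.908). Counting error alone sets these intervals, and likewise the upper limits that go with a count of 0.

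Apoe was also abundant in low-Ttr cells. Their mean was 176 per 10000 UMIs in R1 and 180 in R2, and 59 of 59 and 17 of 19 cells held a UMI, also after every cell was thinned to 2000 UMIs. Low-Ttr cells with markers of other cell types are given apart. The microglia or macrophage-marked cells averaged 1059 per 10000 in R1 (2 cells) and 266 in R2 (1 cell), while the fibroblast-marked cells held 14 Apoe UMIs over 3 cells in R1 and 0 UMIs over 2 cells in R2. Within the Pax6/Dkk3-marked cells the mice went opposite ways as counted, without scaling. The summed level was 0.821 times that of high-Ttr cells in R1 (0.789 to 0.853) and 1.35 times in R2 (1.29 to 1.41). These intervals leave out the spread between cells, whose coefficient of variation was 46.8% and 48.1% in the marked cells. Means per marked cell were 147 in R1 and 197 in R2, against 179 and 164 in high-Ttr cells. Medians were 135 and 169 against 175 and 163, so in R2 the typical marked cell lay close to the high-Ttr cells. With TMM scaling, fits in 1 mouse with no test gave log2 changes of -0.88 in R1 and -0.43 in R2. The opposite directions thus depended on the scaling. Over all low-Ttr cells, the fitted log2 change was -0.63 ± 0.505 (SE) with an adjusted p of 0.601 by edgeR's quasi-likelihood test over 11487 genes, and it was 0.13 without TMM scaling. TMM scaling moved the median log2 change of all genes from 0.38 to -0.34, and relative to that median Apoe lay at -0.29 with TMM and at -0.25 without. Apoe did not pass the test with either scaling.

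**Figure D1:**
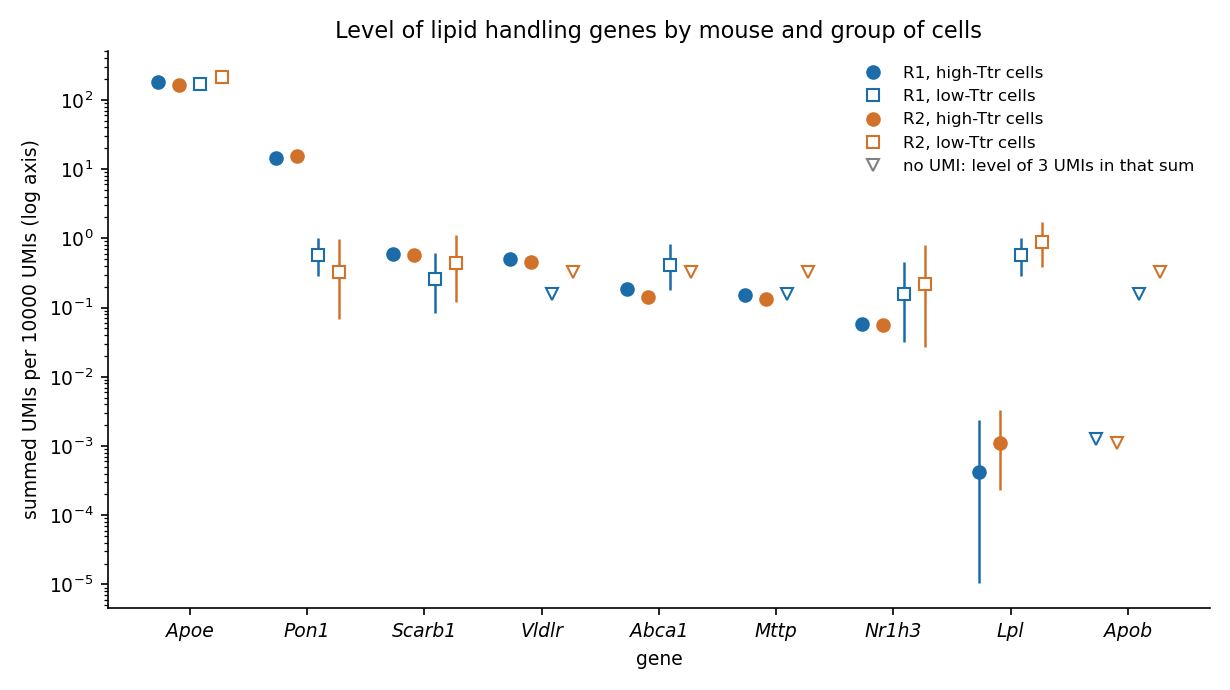
Summed UMIs of each gene per 10000 UMIs (log axis) in high-Ttr cells (filled circles) and low-Ttr cells (open squares) of mouse R1 (blue) and R2 (orange), with exact 95% Poisson intervals of the counts; open triangles stand for sums with 0 UMIs and lie at the level of 3 UMIs. Apoe lies near 200 in all 4 sums, Pon1 falls from 14.4 and 15.4 to 0.572 and 0.329, and Lpl lies at 0.572 and 0.878 in low-Ttr sums against 0.000422 and 0.00112 in high-Ttr sums.

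The partners that pack apolipoprotein B were scarce or not found. Apob (chr12:7977648-8016835), the scaffold of the large particles that liver and gut secrete, had 0 UMIs in every cell of both mice, which allows up to 0.00127 (R1) and 0.00112 (R2) per 10000 UMIs in high-Ttr cells. Mttp (chr3:138089854-138144968), the microsomal transfer protein that loads lipid onto apolipoprotein B, had 361 and 358 UMIs in high-Ttr cells, with means of 0.156 and 0.155 per 10000. It was found in 9.72% of high-Ttr cells of R1 and 7.89% of R2, and in 2.60% and 2.30% after thinning to 2000 UMIs. So Mttp UMIs were present in high-Ttr cells in which no Apob UMI was found. Low-Ttr cells had 0 Mttp UMIs, which allows 0.156 per 10000 in R1 and 0.329 in R2. At that depth a difference was not detectable, and edgeR gave an adjusted p of 0.103, or 0.0164 without the replicate block. The 0 of R1 depended on the limit on mitochondrial UMIs, without which its low-Ttr cells held 3 Mttp UMIs, outside the Pax6/Dkk3-marked cells, and the adjusted p was 0.624.

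Of the receptors, Vldlr was lower in low-Ttr cells. Vldlr (chr19:27216484-27254231) encodes the very low density lipoprotein receptor, which binds particles that carry apolipoprotein E. High-Ttr cells held 1172 Vldlr UMIs in R1 and 1225 in R2, with means of 0.498 and 0.451 per 10000, and 27.5% and 23.1% of them had a UMI. None of the 59 and 19 low-Ttr cells had one, and thinned to 2000 UMIs the shares were 8.46% and 7.14% of high-Ttr cells against 0 of 59 and 0 of 19 low-Ttr cells, a count of 0 that allows up to 5.08% and 15.8%. Against the floor of 3 UMIs per sum, Vldlr was at least 3.17-fold lower in R1 and at least 1.39-fold lower in R2. The exact 95% intervals are wider, with ratios of low-Ttr over high-Ttr up to 0.388 in R1 and 0.889 in R2. edgeR's adjusted p was 8.52e-05 over all low-Ttr cells and 0.000436 over the Pax6/Dkk3-marked cells, where the bounds were 2.81-fold and 1.25-fold. In these marked cells the exact intervals of the ratio reached 0.438 in R1 and 0.983 in R2, the latter close to no difference. Vldlr passed the filter on low counts only through its high-Ttr sums, and its fitted fold change is not given because it has no lower end with both low-Ttr sums at 0.

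Scarb1 (chr5:125277087-125341094), the scavenger receptor that takes up cholesterol from high density lipoprotein and also lets in carotenoids, was the third most abundant of the genes. Its mean in high-Ttr cells was 0.601 per 10000 in R1 and 0.550 in R2, above Vldlr in each mouse, and 34.6% and 30.5% of cells had a UMI. Low-Ttr cells held 5 and 4 UMIs, and the ratio of summed levels, low-Ttr over high-Ttr, was 0.441 in R1 (0.143 to 1.03) and 0.772 in R2 (0.210 to 1.98). Both intervals include 1. The fitted log2 change was -1.55 ± 0.642 (SE) with an adjusted p of 0.118, and it was -0.81 without TMM scaling. With low-Ttr cells limited to those under 1% Ttr the log2 change was -2.28 and the adjusted p 0.0223, and without the replicate block the adjusted p was 0.0119, so the call on Scarb1 depended on the cells counted as low and on the block.

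Abca1 and Nr1h3, of cholesterol efflux and its regulation, were sparse in high-Ttr cells and rested on few UMIs in low-Ttr cells. Abca1 (chr4:53030787-53159895), the transporter that loads cholesterol onto lipid-poor apolipoproteins, had means of 0.185 and 0.126 per 10000 in high-Ttr cells, and the summed level of R2 was 0.769 times that of R1 (0.669 to 0.883). It was found in 11.8% and 8.56% of high-Ttr cells, or 3.14% and 2.12% after thinning. Nr1h3 (chr2:91184061-91202834), which encodes LXR alpha, had means of 0.0592 and 0.0556 per 10000 and was found in 4.29% and 3.75% of high-Ttr cells. The other LXR gene, Nr1h2, was more abundant, with means of 0.387 and 0.351 in R1 and R2. It was found in 25.1% and 21.0% of high-Ttr cells and was named after its values were seen. Abca1 and Mttp, neighbours in the order of levels, overlapped between the mice. In low-Ttr cells Abca1 had 8 UMIs in R1 and 0 in R2, and Nr1h3 had 3 and 2. The Abca1 ratio in R1 was 2.24 (0.961 to 4.45), and the 0 of R2 allows ratios up to 2.85. The Nr1h3 ratios were 2.74 (0.558 to 8.17) and 3.96 (0.475 to 14.5). edgeR's adjusted p was 0.952 for Abca1, at a log2 change of -0.19 with TMM scaling and 0.49 without, and 0.780 for Nr1h3, at 0.96. Abca1 rested on 1 mouse, since its log2 change was 0.56 without R2, while the value without R1, -6.61, was fitted to a low-Ttr sum of 0 UMIs and is no bound.

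**Figure D2:**
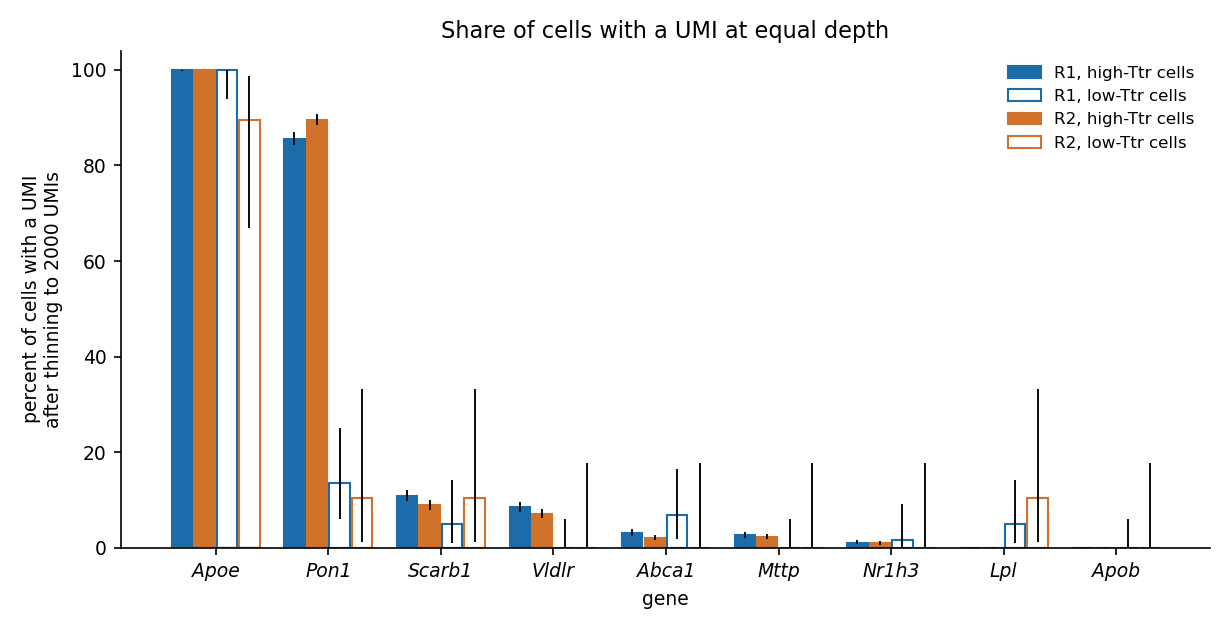
Percent of high-Ttr cells (filled bars) and low-Ttr cells (open bars) of R1 (blue) and R2 (orange) with at least 1 UMI of each gene after every cell was thinned to 2000 UMIs; lines are exact Clopper-Pearson 95% intervals and cover counting error only. Pon1 stands at 85.6% and 89.6% of high-Ttr cells against 13.6% and 10.5% of low-Ttr cells, and Vldlr at 8.46% and 7.14% against 0.

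Lpl ran the other way. Lpl (chr8:68880491-68907448) encodes lipoprotein lipase, which splits the triglyceride of circulating particles and is known from fat, muscle and macrophages. High-Ttr cells held 1 Lpl UMI among 23703017 in R1 and 3 among 26844165 in R2, in 1 of 2612 and 3 of 2828 cells. Low-Ttr cells held 11 and 8 UMIs, in 7 of 59 and 4 of 19 cells. These shares were 11.9% (4.91 to 22.9) and 21.1% (6.05 to 45.6) in shallower cells, against 0.0383% and 0.106%. The ratio of summed levels, low-Ttr over high-Ttr, was 1355 in R1 (197 to 58330) and 786 in R2 (189 to 4598), with intervals this wide because of the 1 and 3 UMIs in the denominators. edgeR gave a log2 change of 8.97 ± 1.61 (SE) and an adjusted p of 8.99e-07, or 7.51 in R1 alone and 7.55 in R2 alone with no test, and Lpl passed the filter only through its low-Ttr sums.

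The Lpl UMIs did not all lie in cells with markers of another type. The Pax6/Dkk3-marked cells held 10 of the 11 in R1 and 3 of the 8 in R2. The microglia or macrophage-marked cells held 0 in R1 and 3 in R2, and the fibroblast-marked cells held 1 and 2. With the low-Ttr cells marked as other types left out and the high-Ttr cells unchanged, edgeR's log2 change was 8.40 with an adjusted p of 0.000185. In the Pax6/Dkk3-marked cells alone it was 8.39 and 0.000124, where R2 alone gave 6.28 with no test. In both comparisons Lpl again passed the filter only through its low-Ttr sums, so these p-values are not counted as calls. Lpl UMIs were found in 6 of 52 such cells of R1 and 2 of 16 of R2, so most of these cells had no Lpl UMI at this depth.

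Pon1 was far lower in low-Ttr cells. Pon1 (chr6:5168090-5193946) encodes paraoxonase 1, the enzyme of high density lipoprotein that liver releases into serum. In high-Ttr cells its mean was 13.7 per 10000 in R1 and 15.0 in R2, or 14.4 ± 0.948 (SD, n = 2 mice), rank 56 and 49 of all genes, and the summed level of R2 was 1.07 times that of R1 (1.05 to 1.08). It was found in 96.6% and 98.3% of high-Ttr cells, and in 85.6% and 89.6% after thinning. Single cells varied more than for Apoe, with a coefficient of variation of 61.9% and 57.3% against 28.9% and 24.1%. The highest cells reached 67.2 per 10000 in R1 and 100.3 in R2, while 89 and 49 cells had no Pon1 UMI.

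Low-Ttr cells held 11 Pon1 UMIs in R1 and 3 in R2, in 9 of 59 and 2 of 19 cells. Their mean levels were 0.551 and 0.252 per 10000, and the ratio of summed levels was 0.0396 (0.0198 to 0.0708) in R1 and 0.0213 (0.00440 to 0.0624) in R2. The groups did not overlap between mice. edgeR's log2 change was -5.66 ± 0.489 (SE) with an adjusted p of 1.9e-28, and over the Pax6/Dkk3-marked cells it was -5.70 with an adjusted p of 8.04e-25. Fitted in 1 mouse with no test, it was -5.25 in R1 and -6.40 in R2 over all low-Ttr cells. RNA free in the cell suspension (ambient RNA) was estimated at 6.54% of low-Ttr UMIs in R1 and 3.13% in R2. These are the shares at which all Ttr UMIs of low-Ttr cells would be ambient. They rest on the gene that defined the groups and leave no Ttr UMI to the cells themselves. With ambient RNA subtracted at these shares, the fitted Pon1 change was -17.19, which is no bound and no measured size. The size of the change thus depended on that estimate. Whether the Pon1 UMIs of low-Ttr cells came from these cells was not tested. Other RPE transcripts were also lower in the low-Ttr sums as counted, to different extents. The ratio was 0.0588 (0.0441 to 0.0767) in R1 and 0.0133 (0.00486 to 0.0288) in R2 for Rpe65, the retinoid isomerase. For Rlbp1, a retinaldehyde carrier, it was 0.127 (0.103 to 0.154) and 0.0985 (0.0700 to 0.135), above the interval of Pon1 in each mouse. The microglia or macrophage-marked and fibroblast-marked cells held 0 Pon1 UMIs in both mice.

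Of the 5 genes that met the filter on low counts in at least 1 sum of each group, Apoe, Pon1, Scarb1, Abca1 and Nr1h3, edgeR called Pon1 lower over all low-Ttr cells. Vldlr and Lpl also had adjusted p under 0.05, but each entered the test only through the group in which it was higher, so they are given by their UMIs and not counted as calls here. Of all 11487 genes tested, 6.19% were called lower and 4.21% higher, 711 and 484 genes, so that 40.5% of the calls were higher, against 74.0% of 1486 calls without TMM scaling and 53.9% of 927 calls by DESeq2. Without the replicate block 2235 genes were called. Pon1 was also called lower without TMM scaling, with DESeq2 and without the block. It was called lower in the Pax6/Dkk3-marked cells too, where 5.39% of 11378 genes were lower and 2.93% higher. There 35.2% of all calls were higher, against 72.3% without TMM scaling. Apob was not tested, and Mttp entered only through its high-Ttr sums. With 2 mice and the mouse as a block, p-values rest on how far the difference between the groups varied between these animals. The estimate of that spread was moderated by information shared over the genes tested.

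Among these genes, Apoe and Pon1 varied together across the high-Ttr cells of both mice. After thinning to 2000 UMIs per cell, the Pearson correlation of log2(UMIs + 1) was 0.282 over 2612 cells of R1 and 0.205 over 2828 cells of R2. Correlations across cells are a description, since the cells of a mouse share a library and differ in depth and quality. Both genes were higher in cells with a lower share of mitochondrial UMIs, at -0.306 and -0.251 for Apoe and -0.300 and -0.231 for Pon1 in R1 and R2, and both were higher in deeper cells, more so in R1, at 0.255 and 0.0754 for Apoe and 0.277 and 0.125 for Pon1. With depth and mitochondrial share held fixed, a calculation added after the data were seen, the correlation of Apoe with Pon1 was 0.234 and 0.176. Leaving Ttr out before thinning gave 0.301 and 0.204. With the cells of a mouse split into 4 bins of depth, Apoe in R1 was 164, 179, 183 and 191 per 10000 from the shallowest bin to the deepest, and Pon1 was 12.2, 13.0, 13.8 and 15.7. In R2 the second bin was lowest for both, with Apoe at 165, 157, 164 and 169 and Pon1 at 15.6, 13.8, 14.7 and 16.0.

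Both genes also varied with Rpe65, at 0.235 and 0.131 for Apoe and at 0.189 and 0.0975 for Pon1. The correlation of Apoe with Ttr was -0.0578 and -0.0647, but Ttr defined these cells, so this is no result. The other pairs among the 7 genes with enough UMIs lay between -0.06 and 0.06 in both mice, at levels of UMIs where weak correlations are no finding. Among 2937 genes found in at least 20% of high-Ttr cells of both mice, the genes most like Apoe were Clu at 0.393 and 0.272, Rgr at 0.303 and 0.211, and Pon1. Clu encodes clusterin, another secreted apolipoprotein, and Rgr an opsin of the RPE. The genes most like Pon1 were Apoe, Rgr at 0.219 and 0.170, and Clu at 0.212 and 0.160. For Vldlr (Twf1, Kif1a and Man2a2 first) and Scarb1 (Timp3, Fbxl12 and Hipk1 first) no correlation of these reached 0.07 in either mouse.

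**Figure D3:**
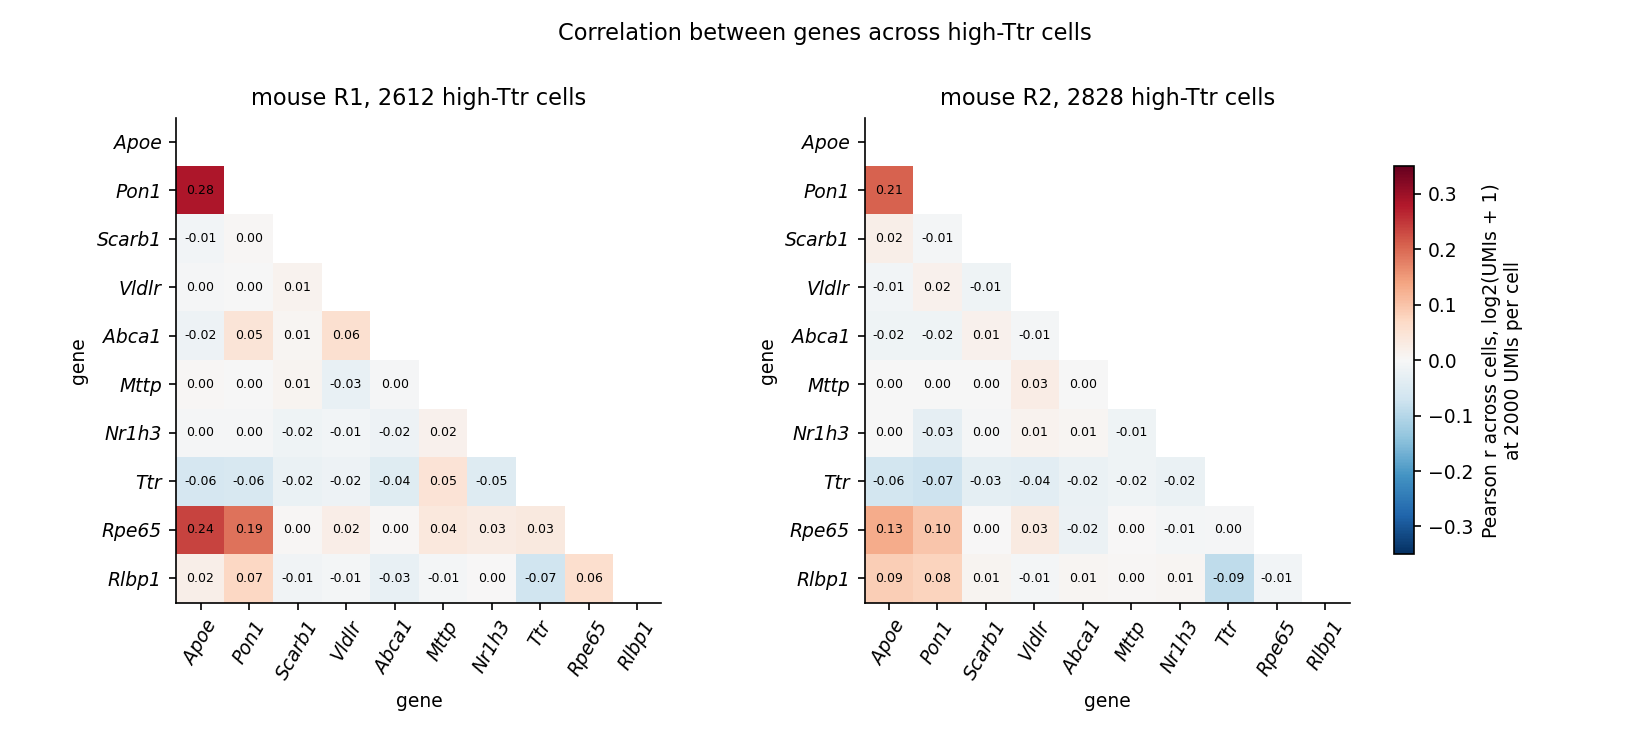
Pearson correlation (colour and number) of log2(UMIs + 1) between genes across the high-Ttr cells of R1 (left, 2612 cells) and R2 (right, 2828 cells), each cell thinned to 2000 UMIs. Apoe with Pon1 stands at 0.28 and 0.21, each of them with Rpe65 at 0.10 to 0.24, and the remaining pairs of the lipid genes lie near 0.

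The wider lipid pathways were followed in 8 lists of 114 genes that contain these 9. The lists were chosen with earlier results of these data known, so their shares beside those of all genes are a description and no test. Of the other 105 genes, 84 could be tested, and edgeR called 15 lower (17.9%, against 6.19% of all genes) and 2 higher (2.38%, against 4.21%) in low-Ttr cells. Their median log2 change was -0.64 against -0.34 for all genes. Without TMM scaling 12 were lower (14.3%, against 3.37% of all genes) and 8 higher (9.52%, against 9.57%), and the median was 0.10 against 0.38. The balance of directions thus depended on the scaling, while the lists' median lay below that of all genes in both. With DESeq2, 12 of the 84 were lower (14.3%) and 2 higher (2.38%), against 4.61% and 5.4% of all 9260 genes with an adjusted p. The 84 can include genes to which DESeq2 gave no adjusted p, so these shares are not fully alike. Without the replicate block 19 were lower (22.6%, against 11.1% of all genes) and 5 higher (5.95%, against 8.36%). Genes of these lists could also pass the filter through 1 group alone, as Apod, 1 of the 2 higher genes, did through its low-Ttr sums.

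Of the 8 lists, that of lipoprotein receptors held the most calls, with 5 of 12 tested lower (41.7%, against 6.19% of all genes). The same 5 were lower without TMM scaling, against 3.37% of all genes, and with DESeq2, against 4.61%. None was higher by edgeR, with 0 also at an unadjusted p under 0.05. Vldlr is counted among these 5, although it entered the test only through its high-Ttr sums and was not counted as a call above. The others were Lrp2, Sorl1, Lrp8 and Lrp1, all of the LDL receptor family or related to it. Lrp2, or megalin, which takes up many ligands from the cell surface, went from 0.608 and 0.589 per 10000 summed UMIs in high-Ttr cells of R1 and R2 to 0.0520 and 0 in low-Ttr cells, with a log2 change of -4.81 and an adjusted p of 8.92e-05. With ambient RNA subtracted, the fitted change of Lrp2 was -12.57, which is no measured size. Sorl1, a sorting receptor, went from 0.786 and 0.802 to 0.104 and 0.110, with a log2 change of -3.61 and an adjusted p of 6.79e-05. The low-Ttr levels of Lrp2 and Sorl1 lay under that of 3 UMIs, 0.156 in R1 and 0.329 in R2. The sizes of their log2 changes are therefore uncertain. Lrp8 (-3.05) and Lrp1 (-1.68) lie outside the rule for named genes and were named after their values were seen. The log2 changes without TMM scaling were -4.10 for Lrp2, -2.89 for Sorl1, -2.32 for Lrp8 and -0.94 for Lrp1.

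Assembly genes and lipases moved in both directions. Of 12 assembly and apolipoprotein genes tested, Pltp, which transfers phospholipid between particles, was lower, from 11.2 and 11.1 to 3.48 and 0.659 per 10000 summed UMIs, with a log2 change of -3.20 and an adjusted p of 1.84e-13. Clu was lower as well, from 84.2 and 83.1 to 44.6 and 51.1, with -1.55 and 0.00564. The sizes depended on the scaling, with log2 changes without TMM of -2.40 for Pltp and -0.80 for Clu. Apod, an apolipoprotein of the lipocalin family, was higher, from 0.00253 and 0.00112 to 0.884 and 1.76, with 8.62 and 4.75e-14. It passed the filter on low counts only through its low-Ttr sums, with 6 and 3 UMIs in high-Ttr cells of R1 and R2. The Pax6/Dkk3-marked cells held 0 Apod UMIs in both mice. Apod did not pass the filter in their comparison, and its adjusted p there was 0.980 without the filter. Of 9 lipases and partners tested, Angptl4, a secreted inhibitor of Lpl, was lower, from 1.17 and 1.11 to 0.156 and 0.110, with -3.74 and 1.02e-06. The low-Ttr levels of Angptl4 did not exceed that of 3 UMIs, 0.156 in R1 and 0.329 in R2, so the size of its change is uncertain. Mgll, which splits monoglycerides inside the cell, was higher beside Lpl, from 2.60 and 2.53 to 20.1 and 11.6, with 1.85 and 4.09e-06. Its log2 change without TMM scaling was 2.61. In the Pax6/Dkk3-marked cells alone Mgll stood at 22.1 and 12.9.

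Sterol efflux and sterol synthesis follow. None of 11 efflux and LXR genes tested was called in either direction by edgeR or DESeq2, and 1 was lower and 0 higher at edgeR's unadjusted p under 0.05. Of 24 genes of cholesterol synthesis and the SREBP pathway, Scap, Srebf1 and Fdft1 were lower (12.5%, against 6.19% of all genes), at -2.39, -1.78 and -1.49, with adjusted p of 0.00139, 0.0233 and 0.0393. Of these, only Scap was called without TMM scaling, where 4 genes of this list were higher, and DESeq2 did not call Srebf1 (adjusted p 0.143) or Fdft1 (0.215). Scap and Srebf1 encode the sterol sensor and the transcription factor of lipid synthesis, and Fdft1 encodes squalene synthase. Fdft1 lies outside the rule for named genes, since its summed level was higher in the low-Ttr cells of R2 (0.988 against 0.862 per 10000), and was named after its values were seen. Of 10 lysosomal and carrier genes, Scp2 and Npc2, which carry cholesterol within the cell, were lower at -2.00 and -1.16. Their log2 changes without TMM scaling were -1.25 and -0.41, and there edgeR did not call Npc2 (adjusted p 0.289). Of 11 storage genes, Slc27a1, a fatty acid transporter, Plin2, the coat protein of lipid droplets, and Soat1, which esterifies cholesterol, were lower at -3.23, -2.59 and -2.51. Their summed low-Ttr levels in R2 were 0.110, 0 and 0.220 per 10000, under the 0.329 of 3 UMIs, so these sizes are uncertain. Plin2 was not called by DESeq2, which gave -4.15 with an adjusted p of 0.373. Of the 3 paraoxonases only Pon1 was called, and that its relatives differ from it was not tested.

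**Figure D4:**
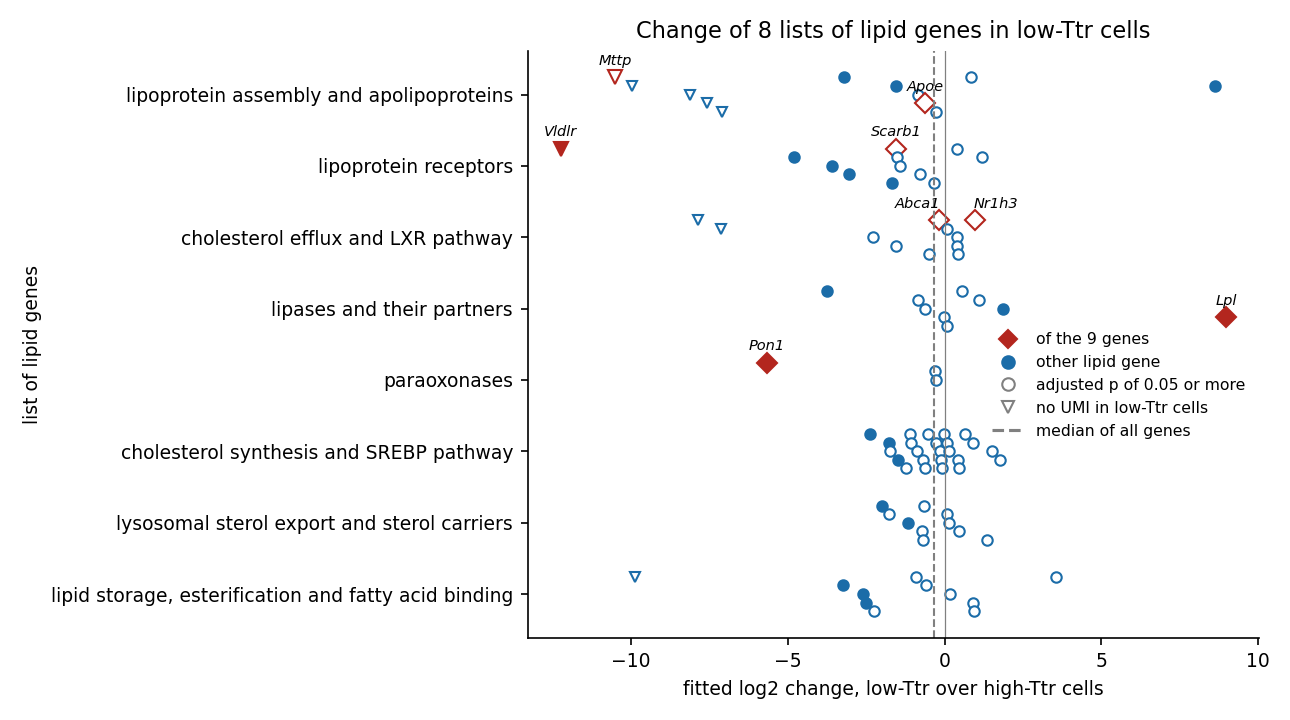
Fitted log2 change (horizontal axis) of each tested gene of the 8 lipid lists (rows), low-Ttr over high-Ttr cells, with the 9 genes in red and other genes in blue; filled symbols have an adjusted p under 0.05, triangles had no UMI in low-Ttr cells so that their position is no measured size, and the dashed line is the median of all genes at -0.34. Filled symbols lie left of 0 in 17 genes and right of 0 in 3, Lpl, Apod and Mgll, of which Lpl and Apod passed the filter only through their low-Ttr sums. Vldlr, among the 17, passed it only through its high-Ttr sums.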

How the data were processed

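Cell Ranger 1.2.0 was run by the authors against GRCm38, and the deposited values are raw UMI counts, not normalized, of every gene in every called cell. The labels and the paper name different 10x chemistry versions. Per the submitters' processing notes, bcl2fastq 2.20.0.422 was used. SoupX, DoubletFinder and the clustering of the study were not repeated here.

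The 9 genes, the lists of lipid genes and the marker lists were chosen with earlier results of these data known. Kept cells had 500 genes or more, which 4 cells of R1 and 0 of R2 lacked, and at most 5% mitochondrial UMIs, which 58 and 28 exceeded. Likely doublets were scored by how many artificial doublets (25% of profiles) lay near a cell (the closest 1%) in the space of 10 principal components of 2000 variable genes, and the top 4% were dropped. This took out 111 and 119 cells, of which 0 were low-Ttr. A low-Ttr cell took the class of the marker list with the largest share of its genes found, from 3 markers on. UMIs were summed per mouse over low-Ttr and high-Ttr cells, which gave 4 sums. These were tested with edgeR 4.0.16 in R 4.3.3 (TMM, filterByExpr, glmQLFit and glmQLFTest, Benjamini-Hochberg adjustment, threshold 0.05) with the mouse as a block, since both sums of a mouse come from 1 animal. SE is the absolute log2 change divided by the square root of F. The Pax6/Dkk3-marked cells were tested in the same way, and classes under 10 cells per mouse are given as values. DESeq2 1.42.0 was an alternative. Cells were thinned to 2000 UMIs without replacement, and every cell reached that depth. Shares carry exact Clopper-Pearson intervals, ratios of summed counts exact conditional ones, all at 95%, and 0 counts allow up to 3. Python 3.11.15 with numpy 2.4.6, scipy 1.17.1 and pandas 2.3.3 was used.

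All 9 genes are named, and from each lipid list up to 3 genes per direction with the largest log2 change among those called and moving the same way in both mice. Likeness was ranked by the mean correlation of both mice, 3 genes each. edgeR was tested on simulated data in which the profile pooled over all sums was scaled to the depth of each sum. It called 0 of 11218 genes with none changed, and of 200 changed genes recovered 61.5% at a log2 change of 2 and 85.5% at 4. The simulated dispersion, the spread beyond counting error, was set lower than the 0.115 fitted to the real sums. Changed genes were drawn from those with 2 or more UMIs expected in the smallest sum. These figures therefore do not describe noisier data, sparser genes, or groups that differ in composition as the real ones do.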

Additional observations from a re-analysis of the deposited data

Results flagged for a closer look

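Apoe of the low-Ttr cells with markers of other types went apart from high-Ttr cells in opposite directions, which drew attention because each mouse showed the same split. The summed level, low-Ttr over high-Ttr, was 5.66 in R1 (2 cells) and 1.60 in R2 (1 cell) for microglia or macrophage-marked cells, and 0.0698 in R1 (3 cells) and 0 in R2 (2 cells) for fibroblast-marked cells, where 0 UMIs stand for at least 32.2-fold lower against a floor of 3 UMIs. The exact intervals of the first pair were 5.20 to 6.14 and 1.27 to 2.00. Those of the second were 0.0382 to 0.117 and up to 0.0382. All of them cover counting error only and leave out the spread between cells. In R1 the 2 microglia or macrophage-marked cells had Apoe levels of 740 and 1377. Counting error alone gave 956 to 1130 for their summed level, so both cells lay outside it. These intervals therefore do not show how far such cells differ from high-Ttr cells. The difference between these classes was not tested, since each holds fewer than 10 cells in a mouse.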

How the results depend on the processing

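Depth limits these results to the 192400 and 91115 UMIs of the low-Ttr sums, in which a gene under 0.156 and 0.329 per 10000 cannot be told from 0. Without the replicate block, 2235 genes were called over all low-Ttr cells and 1903 in the Pax6/Dkk3-marked cells, against 1195 and 946 with it, Mttp was called at a fitted -10.51 (adjusted p 0.0164), which is no bound, and Scarb1 at -1.58 (adjusted p 0.0119), while Abca1 turned to 0.058, and to 0.033 in the Pax6/Dkk3-marked cells. It changed no call of the 9 genes other than those of Mttp and Scarb1. Without TMM scaling Apoe turned to 0.13 and Abca1 to 0.49, and in the Pax6/Dkk3-marked cells to 0.080 and 0.47. Of the 105 lipid genes outside the 9, 2 were higher in the main comparison, 8 without TMM scaling and 5 without the replicate block, when the share of all genes called higher was 4.21%, 9.57% and 8.36%. With low-Ttr cells under 1% Ttr, Scarb1 was called at -2.28 (adjusted p 0.0223), and Lpl did not pass the filter in the Pax6/Dkk3-marked cells. With ambient RNA subtracted, Pon1 was fitted at -17.19 against -5.66 over all low-Ttr cells, and at -17.19 against -5.70 in the Pax6/Dkk3-marked cells. The value of -17.19 is no bound and no measured size. Leaving out each mouse in turn left no replicate for a test and gave -6.61 to 0.56 for Abca1, -8.27 to -8.22 for Vldlr and -6.40 to -5.25 for Pon1 over all low-Ttr cells, and -6.60 to 0.54 for Abca1 in the Pax6/Dkk3-marked cells. The values of Vldlr and the lower ones of Abca1 were fitted to low-Ttr sums of 0 UMIs and are no bounds. Per 10000 UMIs other than Ttr, levels in high-Ttr cells were 195.4 for Apoe, 0.178 for Mttp, 0.539 for Vldlr, 0.655 for Scarb1, 0.0653 for Nr1h3 and 16.4 for Pon1, higher because Ttr no longer counts in the total. The 2 mice agreed so closely on Mttp that any change exceeded their spread: 0.1549 without doublet removal and with high-Ttr cells at 8% or more, 0.1559 without the mitochondrial limit and 0.143 as a sum. The mean correlation of Apoe with Pon1 was 0.334 in cells of 6000 UMIs or more and 0.359 without thinning. Of the log2 changes over all low-Ttr cells, 93 kept their direction and, where tested, their call under the alternatives, and 11 did not or moved. Where a value moved and no reason is given, the cause was not tested.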
